A study of Mus musculus with 10 samples.

Results

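The mRNAs of the cytosolic ribosome were followed in osteocytes of mice with and without myeloma. All protein-coding genes whose symbol is Rpl or Rps and a digit were taken, together with Rplp0, Rplp1, Rplp2 and Rpsa, and pseudogene names and the Rps6k kinases were left out. This naming rule found 86 of the 22548 genes in the table. Of these, 43 encode proteins of the large subunit, 31 of the small subunit and 3 of the P stalk, and 7 are paralogs or retrogenes named after such a gene (Rpl3l, Rpl22l1, Rpl36al, Rpl39l, Rps27l, Rps4l and Rps27rt). The other 2, Rpl7l1 and Rps19bp1, carry the name without being ribosomal proteins of the mature ribosome. The rule misses some genes whose products are also in the ribosome, such as Gnb2l1 (Rack1) and Fau. These are described with the other genes of translation.

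Bulk RNA-seq was performed on osteocytes from 10 male C57BL/6 mice labelled as 8 weeks old, with 1 library per mouse. In the MM group, libraries MM 6 to MM 10, murine Vk12598 myeloma cells had been injected into the femur. In the No MM group, libraries No MM 1 to No MM 5, control mice received no myeloma cells, and the study's methods name PBS as the control injection. The mice carried no transgene or deletion, femurs were examined at week 6, and osteocytes were the cells released from marrow-free bone by sequential collagenase and EDTA digestion, without a sort.

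A ribosome joins a small subunit, which reads the mRNA, to a large subunit, which forms the peptide bond, and most ribosomal proteins are needed in equal numbers. The P stalk, built from Rplp0 and dimers of Rplp1 and Rplp2, recruits the elongation factors. Most mRNAs of this group start with a 5′ terminal oligopyrimidine (TOP) tract, an unbroken run of C and T, through which mTORC1 and Larp1 control their translation together. These mRNAs are mostly short and abundant in every cell type, and their amounts usually move as a block.

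Between 31099174 and 39466332 reads were counted per library. All 10 osteocyte markers were detected, among them Sost, at 110 to 995 CPM (counts scaled to the library total after TMM correction) in No MM and 68.3 to 501 in MM. The preparations also held other cells. Genes of immunoglobulins took 26.6% of the counts in No MM 3 and 29% in No MM 4, and 0.637% to 3.86% in the other 8 libraries. No MM 3 and No MM 4 also had the lowest summed levels of the 9 osteoblast markers (4143 and 2914 CPM, against 14420 to 50680), of the 9 osteoclast markers (1107 and 985 CPM, against 2825 to 14280) and of the 10 erythroid markers (988 and 3463 CPM, against 8077 to 62880), the highest of which was No MM 1. Their summed neutrophil (7305 and 8456 CPM, against 10400 to 33510), B cell (191 and 232 CPM, against 243 to 567) and T and NK cell markers (52.7 and 73.0 CPM, against 99.1 to 185) were the lowest too. Other lists were not lowest in both. Muscle markers summed to 4012 and 1825 CPM (667 to 7138 in the other 8) and osteocyte markers to 515 and 382 CPM (423 to 2625). Endothelial markers summed to 453 and 346 CPM (372 to 699) and adipocyte markers to 546 and 322 CPM (446 to 1297). Plasma cell markers summed to 17300 CPM in No MM 2, 9992 in No MM 3 and 9748 in No MM 4, and to 3146 to 5530 CPM in the other 7 libraries. The labels place No MM 2, No MM 3 and No MM 4 among the controls, and whether their libraries hold RNA of cells that the other controls lack was not tested, so each No MM value below includes that doubt. Counts of genes are given with and without No MM 3 and No MM 4. In bulk tissue, fewer cells of a type and less RNA per cell cannot be told apart.

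Runs of C and T near the annotated starts are shown first, for members that the results turn on. The RefSeq table of start sites (GRCm38.p6) held 65 of the 86 genes. In the window from 20 bases before to 50 bases after the annotated start, 54 of the 65 (83.1%) had a run of at least 7 C or T on the transcribed strand, against 41.5% of 26960 other genes. Runs of at least 10 were found in 64.6% and 13.7%. In each of the following stretches of 30 bases, the capitals mark the longest run in that window. Rpl28, Rpl13a and Rpl18 lie on chromosome 7 and had their highest levels in No MM 3 and No MM 4, Rps10 and Rps12 stayed near the other libraries there, and Rpl22l1 is a paralog with a log2 fold change of 0.02 over 10 libraries and -0.22 without No MM 3 and No MM 4.
Rpl28, chr7:4792954-4792983, plus strand: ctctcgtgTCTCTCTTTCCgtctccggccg
Rpl13a, chr7:45128722-45128751, minus strand: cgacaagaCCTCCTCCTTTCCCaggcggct
Rpl18, chr7:45718064-45718093, plus strand: gcaggccgCTCTTTCCCCgcccactccggc
Rps10, chr17:27635226-27635255, minus strand: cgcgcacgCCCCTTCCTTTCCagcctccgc
Rps12, chr10:23787180-23787209, minus strand: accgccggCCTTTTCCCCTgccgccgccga
Rpl22l1, chr3:28805501-28805530, plus strand: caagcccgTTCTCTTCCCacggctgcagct
The run was 10 to 14 bases long in all 6, which were chosen with their values known, and where in the window it begins differs between genes. Short runs were found too, of 5 bases in Rps16 and Rps3 and of 6 in Rps13, whose log2 fold changes over 10 libraries were -1.04, -0.97 and -1.11. Of the motifs searched on both strands of the 300 bases from 250 before to 50 after the start, CCGGAAG, the core bound by ETS factors, was present in 40.0% of the 65 genes and 9.86% of the others. AAGATGGC, the core of the YY1 motif, was present in 9.23% and 3.18%. The E-box CACGTG was present in 9.23% and 8.09%, and TATAAA in 10.8% and 15.7%. A match describes the sequence and was not tested for binding.

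Per length of annotated exons, Rplp1 of the P stalk had the highest level, 2853 ± 1170 CPM per kilobase (SD over 10 libraries). Rps12, Rps27, Rpl32 and Rps29 came next at 2405, 2384, 1749 and 1657 CPM per kilobase. Rplp1 ranged from 1818 to 5461 CPM per kilobase between libraries, so its rank over Rps12 and Rps27 lies within its spread. At the other end were Rpl24 with 0.935, Rpl39l with 8.83, Rps4l with 9.89, Rps27rt with 10.8 and Rpl3l with 12.3 CPM per kilobase. These levels depend on the annotated length, which sums all exons of a gene. Rps15a, for example, is listed with 5130 bases and had 160 CPM per kilobase. Rpl24 (chr16:55966275-55971435, plus strand) had only 2 to 41 reads per library. In GENCODE M21 it overlaps Gm28037 (chr16:55966343-55980721) on the same strand, a gene that the table does not list. How reads in such overlaps were counted is not given in the sources used here, and the source of the low Rpl24 count was not tested.

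Together, the 86 genes took a larger share of the counts in most control libraries than in the myeloma libraries. The share was 8.52% in No MM 1, 6.45% in No MM 2, 7.18% in No MM 3, 7.06% in No MM 4 and 5.46% in No MM 5. It was 4.68% in MM 6, 5.82% in MM 7, 6.12% in MM 8, 5.40% in MM 9 and 5.07% in MM 10. Thus 4 control libraries were above every MM library, while No MM 5 lay inside the MM range. The group means were 6.93% ± 1.12 (SD, n = 5) and 5.42% ± 0.575 (SD, n = 5), and Wilson intervals at 95% spanned at most 0.02 percentage points, far less than the spread between mice.

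**Figure D1:**
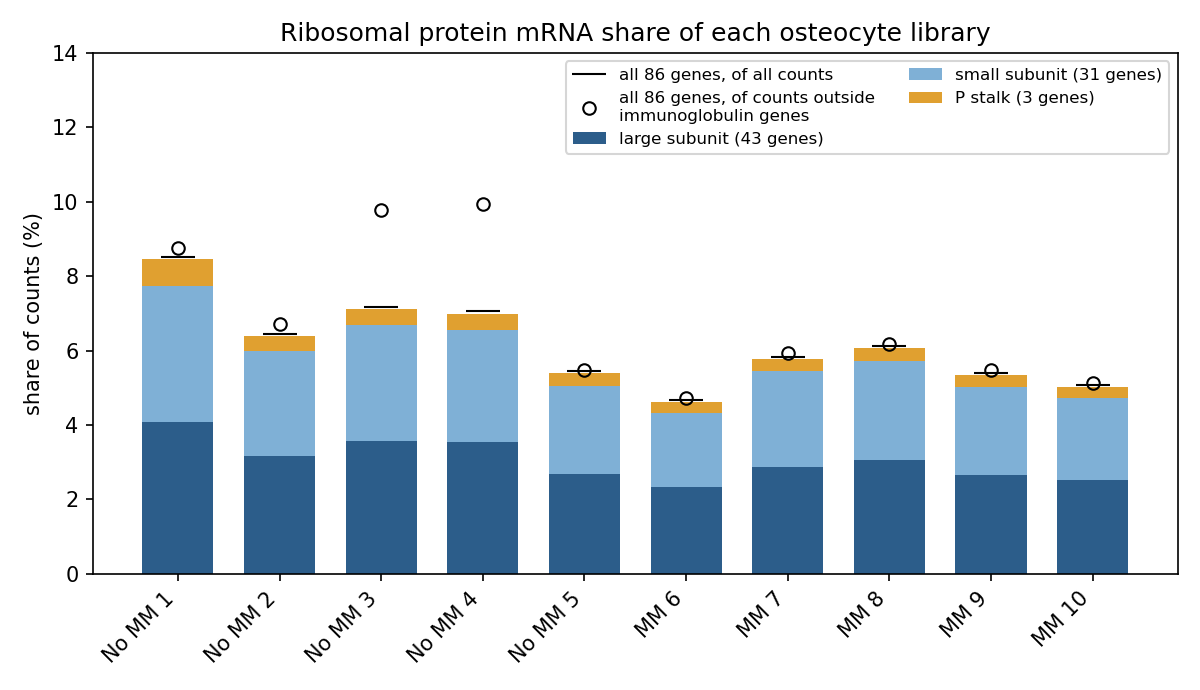
Share of each library's counts, in percent, taken by ribosomal protein genes, with stacked bars for the subunits, a dash for all 86 genes and an open circle for the share after immunoglobulin genes were left out of the total. No MM 1 to No MM 4 stand above all 5 MM libraries, No MM 5 at 5.46% does not, and the circles of No MM 3 and No MM 4 rise to 9.78% and 9.93%.

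With immunoglobulin genes left out of the totals, the share was 8.75%, 6.71%, 9.78%, 9.93% and 5.49% in No MM 1 to No MM 5 and 4.73% to 6.19% in MM. This step put No MM 3 and No MM 4 above No MM 1, with No MM 4 now the highest, and No MM 5 remained inside the MM range. The subunits kept their proportion. Large subunit counts were 1.11 to 1.17 times small subunit counts in the control libraries and 1.12 to 1.17 times in the MM libraries. The P stalk took 0.716% of the counts in No MM 1, 0.345% to 0.438% in the other 4 control libraries and 0.286% to 0.360% in MM.

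Whether the mRNAs differ between myeloma-bearing and control mice was tested for each gene with edgeR's quasi-likelihood test over all 16186 genes that passed the filter on low counts, among them all 86. No gene of the table had an adjusted p under 0.05, and the smallest adjusted p of a ribosomal protein gene was 0.315. At an unadjusted p under 0.05, 72 of the 86 (83.7%) were lower in MM and 0 were higher, where 10.3% of all tested genes were lower and 3.81% higher. The median log2 fold change was -0.71 for the 86 and -0.03 for all tested genes, and 83 of the 86 lay below 0, as did 52.7% of all tested genes. DESeq2 gave an adjusted p under 0.05 to 12 of the 86, all lower in MM, against 0.955% of its genes in that direction and 0.2% in the other. With a 2-fold difference also required, 9 of the 86 were lower, against 3.95% of all tested genes. Because these genes move together within each library, their number is not a number of independent observations.

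Large subunit genes had a median log2 fold change of -0.71. At an unadjusted p under 0.05, 38 of 43 were lower (10.3% of all tested genes), and 21 of 43 without No MM 3 and No MM 4 (3.37%). Rpl28 (chr7:4792874-4794562) was at 1047, 596, 1432, 1846 and 409 CPM in No MM 1 to No MM 5 and at 374, 500, 525, 482 and 448 CPM in MM 6 to MM 10. The first 4 control libraries were above all MM libraries and No MM 5 was among them. Its log2 fold change was -1.20 (SE 0.379, unadjusted p = 0.00919). Rpl18 was at 940, 635, 1435, 1470 and 413 CPM in the controls and 393 to 510 CPM in MM, with a log2 fold change of -1.13 (SE 0.338). For Rpl13a, which also takes part in the translational silencing complex called GAIT, the controls were at 2730, 1694, 3221, 3441 and 1144 CPM and the MM libraries at 971 to 1268 CPM. Its log2 fold change was -1.11 (SE 0.328), and DESeq2 gave an adjusted p of 0.0416. In all 3 genes No MM 4 was the highest library and No MM 5 overlapped the MM group. Without No MM 3 and No MM 4 the log2 fold changes of Rpl28, Rpl18 and Rpl13a were -0.58 (SE 0.299), -0.59 (SE 0.267) and -0.74 (SE 0.299). The unadjusted p were 0.082, 0.053 and 0.0344, and DESeq2 gave each gene an adjusted p of 0.614. With No MM 1 also left out the log2 fold changes were -0.12, -0.24 and -0.34.

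A full separation of the groups was seen for 5 of the 86 genes, all with every MM library below every control (0.68% of all tested genes), and 0 had every MM library above (0.729%). They were Rplp0, Rpl12, Rpl39, Rpl37 and Rpl15, of which Rpl12, Rpl37 and Rpl15 are named because their groups did not overlap. Rpl39, a small protein of the exit tunnel, was at 610, 382, 586, 531 and 320 CPM in the controls and at 255, 314, 317, 259 and 267 CPM in MM. The highest MM library and the lowest control were therefore only a few CPM apart. Its log2 fold change was -0.78 (SE 0.216, unadjusted p = 0.00403), with a DESeq2 adjusted p of 0.0416. Without No MM 3 and No MM 4 it was -0.66 (SE 0.234, unadjusted p = 0.0203), with a DESeq2 adjusted p of 0.614. Rpl15 was at 375 to 746 CPM in the controls and 294 to 361 CPM in MM, Rpl37 at 390 to 788 and 291 to 385 CPM, and Rpl12 at 822 to 1509 and 603 to 820 CPM.

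Of the small subunit genes, 27 of 31 were lower at an unadjusted p under 0.05 (10.3% of all tested genes), and 15 of 31 without No MM 3 and No MM 4 (3.37%). The median log2 fold change was -0.71 and -0.58 in these 2 fits. Rps19 (chr7:24884371-24889806), which is needed to mature the small subunit's rRNA and is the gene most often mutated in Diamond-Blackfan anaemia, was at 1264, 801, 1777, 2028 and 576 CPM in the controls and at 464, 619, 607, 568 and 540 CPM in MM. No MM 3 and No MM 4 were highest and No MM 5 lay between MM 9 and MM 8. The log2 fold change was -1.20 (SE 0.341, unadjusted p = 0.0047), with a DESeq2 adjusted p of 0.0465. Without No MM 3 and No MM 4 it was -0.68 (SE 0.270, unadjusted p = 0.0322), with a DESeq2 adjusted p of 0.614. By contrast Rps12, one of the most abundant, was at 1785, 1296, 1037, 1176 and 1194 CPM in the controls and 802 to 1163 CPM in MM, with a log2 fold change of -0.39 (SE 0.227, unadjusted p = 0.116). Here No MM 3 was the lowest control, below MM 7 and MM 8.

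The 3 P stalk genes were all lower at an unadjusted p under 0.05 over 10 libraries (10.3% of all tested genes). Rplp0 and Rplp1 were so without No MM 3 and No MM 4 too (3.37%), and with No MM 1 also left out none of the 3 (0.519%). Rplp0, the scaffold of the stalk and a common reference gene in qPCR, was at 4443, 1549, 2208, 2463 and 1552 CPM in the controls and at 1233, 1187, 1352, 1369 and 1064 CPM in MM. No MM 1 was far above the rest and the groups did not overlap. The log2 fold change was -0.98 (SE 0.328, unadjusted p = 0.0126). Rplp1 was at 1010 to 2703 CPM in the controls and 900 to 1146 CPM in MM, and Rplp2 at 536 to 1700 and 468 to 745 CPM, with log2 fold changes of -0.78 (SE 0.282) and -0.93 (SE 0.314).

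**Figure D2:**
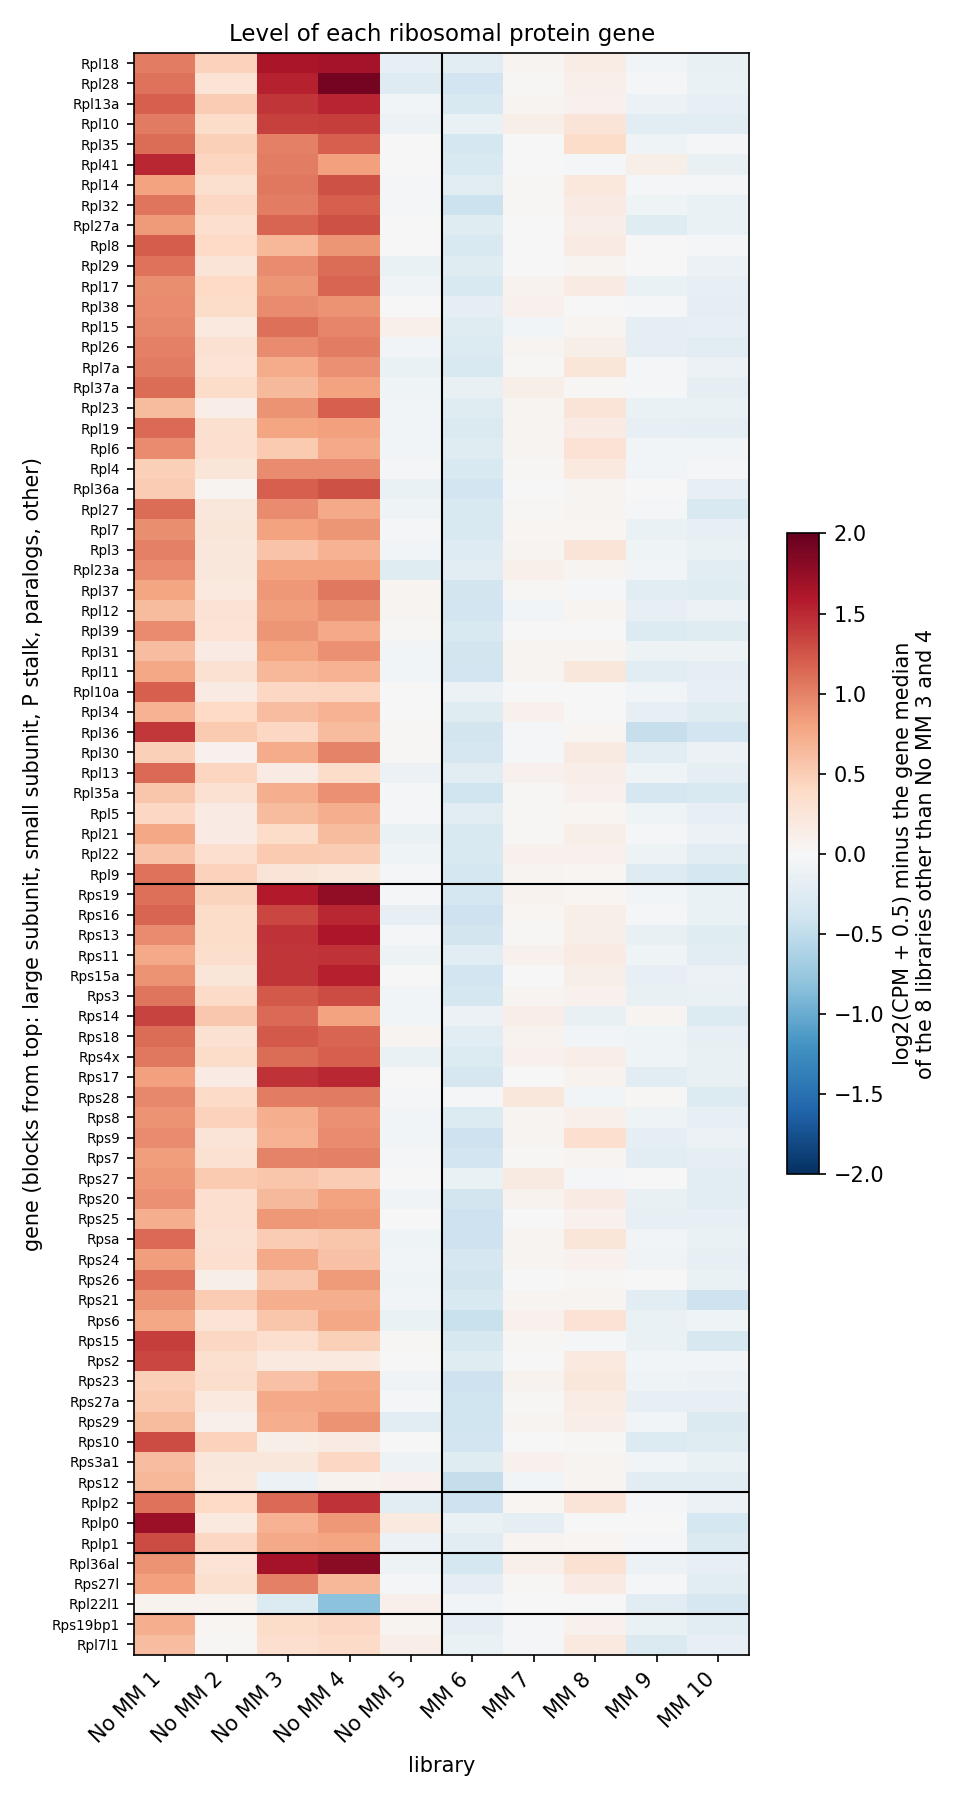
Level of 79 genes with at least 200 counts in every library, as log2(CPM + 0.5) minus the gene's median over the 8 libraries other than No MM 3 and No MM 4, with genes in rows by role and libraries in columns (red is higher, blue lower). Nearly all rows are red in No MM 1, No MM 3 and No MM 4, paler in No MM 2, and near 0 or blue in No MM 5 and the MM libraries.

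Seen by library, the whole block moved together. Over the 81 genes with at least 200 counts in every library, the median deviation from the gene's own median over the 8 libraries other than No MM 3 and No MM 4 was 0.94, 0.32, 0.79, 0.88 and -0.05 on the log2 scale in No MM 1 to No MM 5. In MM 6 to MM 10 it was -0.30, 0.04, 0.09, -0.09 and -0.16. In No MM 1 and No MM 2 all 81 genes were above 0, and in MM 6 and MM 10 none were. Over 9373 other genes with that many counts, the same median lay between -0.05 and 0.09 in every library. TMM scaling and setting each gene against its own median hold that value near 0, so it is no independent comparison. The controls therefore hold 3 high libraries, an intermediate one and one at the MM level, while the 5 MM libraries range from -0.30 to 0.09.

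All 19 genes listed for Diamond-Blackfan anaemia, a failure of red cell production from lack of a ribosomal protein, were lower at an unadjusted p under 0.05 over 10 libraries, with log2 fold changes from -1.20 to -0.48. Of the 19, 9 were lower without No MM 3 and No MM 4, and with No MM 1 also left out 0 were. The 8 members with known roles outside the ribosome or in cancer were all lower over 10 libraries, from -1.11 to -0.47, and 3 of them, Rps14, Rps3 and Rpl13a, without No MM 3 and No MM 4, and 0 with No MM 1 also left out. Rpl5, Rpl11 and Rpl23, which bind Mdm2 and stabilise p53 when ribosome assembly fails, had log2 fold changes of -0.48 (SE 0.207), -0.59 (SE 0.223) and -0.66 (SE 0.276) over 10 libraries. Rps14, whose loss underlies the anaemia of the 5q- syndrome, was at 1749, 998, 1501, 1207 and 667 CPM in the controls and 569 to 758 CPM in MM, with a log2 fold change of -0.90 (SE 0.273). Rpl10 and Rpl22, both altered in T-cell leukaemia, had log2 fold changes of -0.95 (SE 0.313) and -0.47 (SE 0.185), and Rps3, which also acts in DNA repair, had -0.97 (SE 0.299). The lists are subsets of the 86 genes, of which 83.7% were lower over 10 libraries and 45.3% without No MM 3 and No MM 4. Of all tested genes 10.3% were lower over 10 libraries, 3.37% without No MM 3 and No MM 4 and 0.519% with No MM 1 also left out.

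Without No MM 3 and No MM 4, 16600 genes were tested and all 86 were again among them. Of these, 39 (45.3%) were lower in MM at an unadjusted p under 0.05 and 0 were higher, against 3.37% and 2.51% of all tested genes. No gene had an adjusted p under 0.05 with edgeR, and DESeq2 gave 0 of the 86 such a value, where 0.0121% of its genes had one in each direction. At an unadjusted p under 0.05, DESeq2 had 51 of the 86 lower, against 4.05% of all tested genes. The median log2 fold change was -0.57 for the 86 and -0.02 for all tested genes, and 83 were below 0, as were 51.6% of all tested genes. The groups did not overlap for 7 genes with MM lower, Rplp0, Rpl12, Rpl39, Rpl37, Rpl15, Rps12 and Rpl22l1, against 1.34% of all tested genes, and for 0 with MM higher, against 2.49%.

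The order of the genes was not the same in this fit. Rplp0 had the lowest value, -1.05 (SE 0.376, unadjusted p = 0.0206), followed by Rpl36 with -1.02 (SE 0.303, unadjusted p = 0.00804). These 2 were the members lower by at least 2-fold at an unadjusted p under 0.05, against 0.488% of all tested genes. Rps15, Rps10 and Rpl41 followed with -0.90 (SE 0.312), -0.90 (SE 0.294) and -0.89 (SE 0.331). Rps10 was at 1234, 682, 536, 558 and 497 CPM in the controls and 379 to 502 CPM in MM, and Rps15 at 1997, 1021, 966, 1063 and 772 CPM and 609 to 778 CPM. In both, No MM 1 stood apart, and No MM 3 and No MM 4 lay near or below No MM 2.

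**Figure D3:**
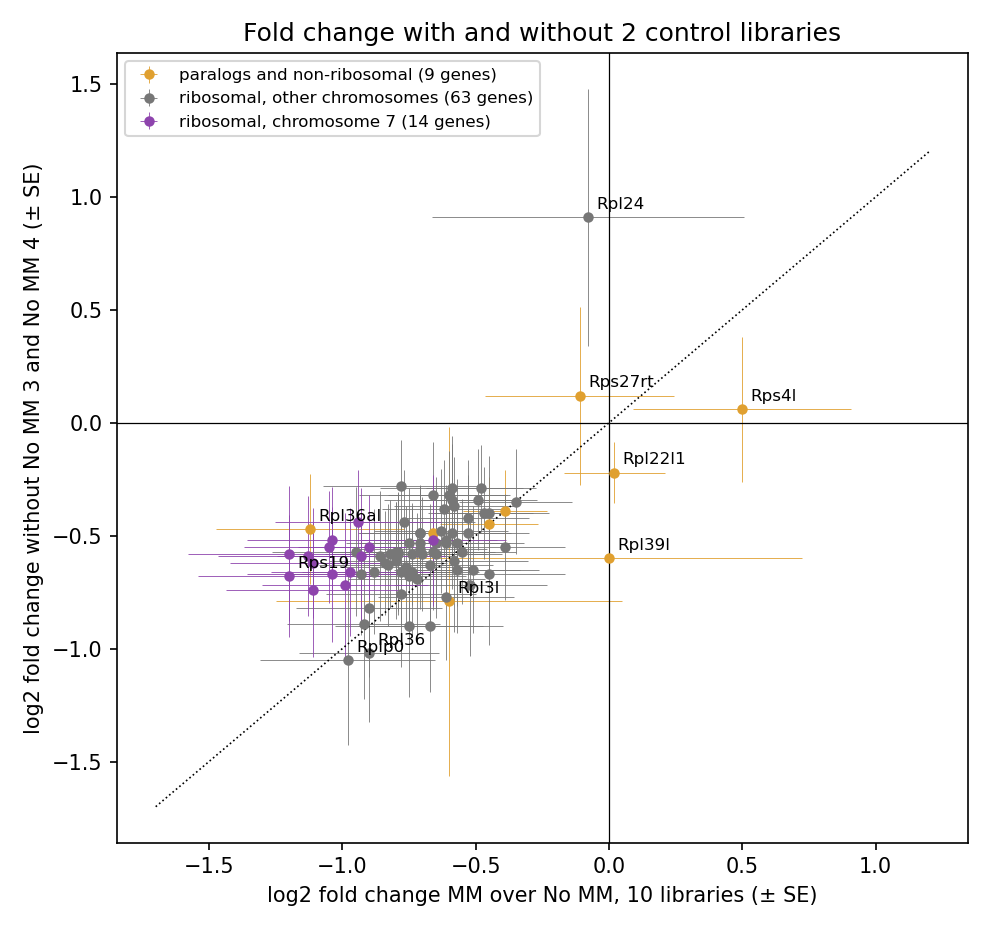
Log2 fold change of MM over No MM with its SE for each of the 86 genes, over 10 libraries (horizontal axis) and without No MM 3 and No MM 4 (vertical axis), with a dotted line of equal values. The 14 genes on chromosome 7 lie above the dotted line, as do many others. Their median shrinks from -1.04 to -0.59, and that of the 72 other genes from -0.66 to -0.57. The paralogs Rps4l, Rpl22l1, Rps27rt and Rpl39l and the low-count Rpl24 lie apart from the block.

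The count of 39 depended on single mice. With 1 MM mouse also left out it was 15, 17, 23, 8 and 6 without MM 6 to MM 10. In these fits 8.17%, 1.73%, 1.93%, 1.40% and 1.40% of all tested genes were lower. It was 22 without No MM 2, against 3.72% of all tested genes. With No MM 1 left out as well, 1 of the 86, Rpl36, was lower at an unadjusted p under 0.05 and 0 were higher, where 0.519% of all tested genes were lower and 0.961% higher, and the median log2 fold change was -0.22, with 83 of the 86 still below 0. Only No MM 2 and No MM 5 then stood for the controls. With No MM 5 left out in place of No MM 1, 70 were lower and 1, the low-count Rpl24, was higher, and the median was -0.78. Calls over all genes rose in that fit too, with 9.67% lower and 1597 of 16886 higher. No MM 1 was also the library with the most erythroid RNA (62880 CPM summed over 10 markers, against 988 to 31230 CPM in the others), and its part in the result was not tested. Gene length moved with No MM 1 too. Its median deviation over protein-coding genes outside the group was 0.72 for those under 800 bases, 0.57 from 800 to 1500 bases and -0.19 from 4000 bases. The ribosomal protein genes deviated there by 0.95 under 800 bases (30 genes), 0.92 from 800 to 1500 bases (32 genes) and 1.03 from 2500 to 4000 bases (7 genes). Other genes from 2500 to 4000 bases had 0.11. These lengths sum all annotated exons, so they need not be those of the mRNAs. Whether length has a part in the deviation of No MM 1 was not tested. In No MM 3 and No MM 4 the other genes under 800 bases were at 0.28 and 0.22.

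In No MM 3 and No MM 4, the excess of ribosomal protein mRNA differed by chromosome. The 14 members on chromosome 7 had a median deviation of 1.43 in No MM 3 and 1.5 in No MM 4, and the 67 members elsewhere had 0.74 and 0.81. In the same libraries 679 other genes of chromosome 7 had a median of 0.52 and 0.58, against 0.05 and 0.07 over all 9373 other genes. Chromosome 8 went the other way, with -0.36 and -0.39 over 509 other genes. Members followed the other genes of their chromosome across 19 chromosomes, with a Pearson r of 0.869 in No MM 3 and 0.768 in No MM 4, and 0.818 and 0.658 without chromosome 7. These points share a library and some chromosomes hold 1 member, so the coefficients only describe these libraries. In the 7 libraries other than No MM 1, No MM 3 and No MM 4 the medians of the other genes lay between -0.10 and 0.12 on every chromosome, and on chromosome 7 No MM 1 had 0.26.

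**Figure D4:**
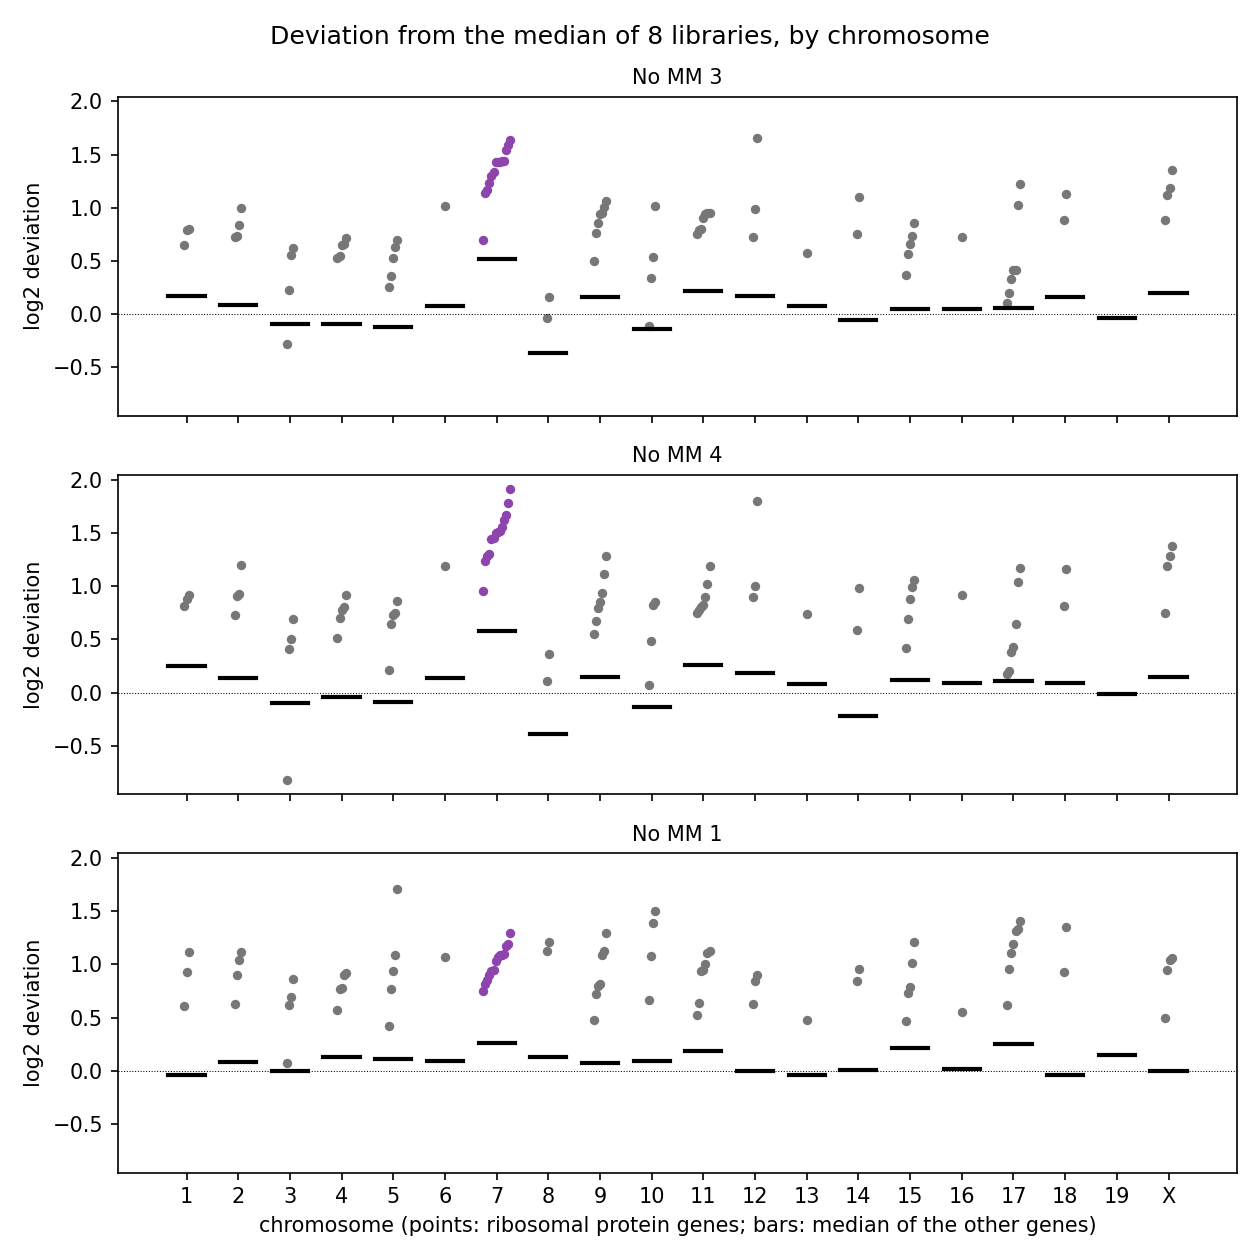
Deviation of each ribosomal protein gene (points, chromosome 7 in purple) and median deviation of the other genes (bars) by chromosome, on the log2 scale, in No MM 3, No MM 4 and No MM 1. In No MM 3 and No MM 4 the median of the points and the bar are highest on chromosome 7 and the bar is lowest on chromosome 8, and in No MM 1 the points of chromosome 7, with a median of 1.05, lie among those of the other chromosomes.

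The excess was spread along chromosome 7. Rpl28, at 4792874, was 2.92-fold above its median over the 8 other libraries in No MM 3 and 3.76-fold in No MM 4, Rps19, at 24884371, 3-fold and 3.43-fold, and Rps15a, at 118104378, 2.70-fold and 2.94-fold. Rplp2, at 141447370, was 2.20-fold and 2.71-fold above its own. Of the 14 genes, 12 were higher in both No MM 3 and No MM 4 than in each of the 8 other libraries. The same was true of 21 of the 67 members elsewhere (31.3%), and of 48.3% of the other genes on chromosome 7 and 23.6% of those on other chromosomes. Over all 10 libraries, all 14 genes of chromosome 7 were lower in MM at an unadjusted p under 0.05 with a median log2 fold change of -1.04, against 58 of 72 and -0.66 for the rest. Without No MM 3 and No MM 4 the medians were -0.59 and -0.57, with 6 of 14 and 33 of 72 lower. The shares of all tested genes lower in these 2 fits were 10.3% and 3.37%. The difference by chromosome was thus seen in those 2 libraries, which also had the high immunoglobulin counts and the low sums of some marker lists given above. Its source was not tested.

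Outside chromosome 7, the member highest above its median in No MM 3 was Rpl36al on chromosome 12. This retrocopy of Rpl36a was at 193, 125, 327, 360 and 95.7 CPM in the controls and at 80.7, 111, 127, 95.2 and 91.4 CPM in MM. No MM 3 and No MM 4 were 3.17-fold and 3.48-fold above its median. The log2 fold change was -1.12 (SE 0.352) over 10 libraries and -0.47 (SE 0.243) without these 2. Relative to Rpl36a, per length, Rpl36al stayed at 20.2% to 28.4% in the controls and 18.4% to 23.6% in MM.

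Of the 7 paralogs, Rpl36al and Rps27l were lower with the block and the other 5 did not pass an unadjusted p of 0.05. Rpl22l1, which can stand in for Rpl22 and whose mRNA Rpl22 represses, was at 126, 126, 98.6, 67.7 and 128 CPM in the controls and at 115, 119, 121, 103 and 94.9 CPM in MM. No MM 4 was its lowest library and MM 10 the next, and No MM 3 was below the other 3 controls, while most members were high in No MM 3 and No MM 4. The log2 fold change was 0.02 (SE 0.189) over 10 libraries and -0.22 (SE 0.133) without these 2, where its groups did not overlap. Rpl22 itself, at 315 to 495 CPM in the controls and 270 to 357 CPM in MM, had -0.47 (SE 0.185). Per length, Rpl22l1 was at 107%, 125%, 85.5%, 59.7% and 171% of Rpl22 in No MM 1 to No MM 5 and at 179%, 140%, 143%, 138% and 137% in MM 6 to MM 10. So 4 of 5 controls were below every MM library, and No MM 5 lay between MM 8 and MM 6.

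**Figure D5:**
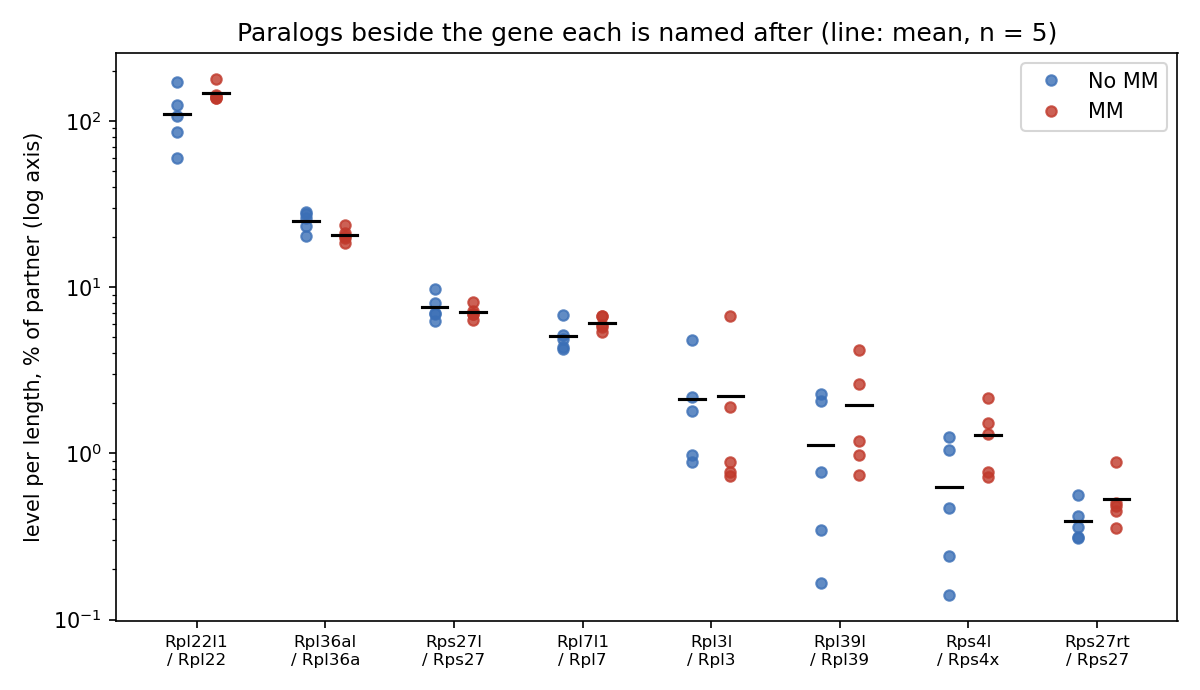
Level per length of each paralog as a percentage of the gene it is named after, on a log axis, with a point for each library (blue No MM, red MM) and a line for the mean of 5. Rpl22l1 is near the level of Rpl22 in both groups, Rpl36al has means of 25.1% and 20.6% of Rpl36a, and Rpl3l, at up to 6.69%, Rpl39l, Rps4l and Rps27rt are the lowest.

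Rpl3l, the form of Rpl3 made in skeletal and heart muscle, was at 24.6, 38.6, 22.0, 10.8 and 5.83 CPM in the controls and at 38.1, 6.27, 6.24, 12.2 and 4.58 CPM in MM. Its highest libraries, No MM 2 and MM 6, were also highest in the summed level of 10 muscle markers (7138 and 6189 CPM, against 667 to 5682 in the others). Rpl39l, known from the testis, was at 0.166% to 2.27% of Rpl39 in the controls and 0.741% to 4.19% in MM. Rps4l was at 0.141% to 1.25% of Rps4x in the controls and 0.719% to 2.15% in MM. Its log2 fold change was 0.50 (SE 0.408, unadjusted p = 0.251), so no difference was detected. Rps27l, a p53 target, was at 6.21% to 9.73% of Rps27 in the controls and 6.36% to 8.14% in MM and was lower along with it, with log2 fold changes of -0.66 (SE 0.198) and -0.55 (SE 0.203).

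Rps27rt is a retrogene of Rps27 with 2.28 to 5.84 CPM in the controls and 3, 4.16, 2.55, 6.51 and 2.99 CPM in MM, between 0.309% and 0.889% of Rps27. The starts of both genes share an unbroken stretch of 38 bases, the first 22 of which are in capitals here. By the study's methods reads were longer than this stretch, and how reads that lie within sequence common to both were counted is not given in the sources used here, so the Rps27rt values are uncertain.
Rps27, chr3:90213626-90213655, minus strand: tttcgctcCTTTCCGGCGGTGACGACCTCC
Rps27rt, chr9:114982718-114982747, minus strand: atcccttgCTTTCCGGCGGTGACGACCTCC
Rpl7l1 and Rps19bp1, the named genes that are not ribosomal proteins, had log2 fold changes of -0.39 (SE 0.157) and -0.45 (SE 0.184), smaller than the median of the ribosomal genes. The 146 genes of the table with a pseudogene name took 0.0109% to 0.0194% of the counts.

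The other genes of translation were counted in the same way. Of 127 genes on 7 overlapping lists, 35 were lower and 1 was higher in MM at an unadjusted p under 0.05 over 10 libraries (10.3% and 3.81% of all tested genes), with a median log2 fold change of -0.34. Without No MM 3 and No MM 4, 6 were lower and 2 higher, with a median of -0.18, which is near the background of 3.37% and 2.51% of all tested genes and no result about these lists. These 6 were Fau, Eif2b5, Eif3h, Vim, Polr1d and Eif4ebp1, and the 2 higher were Eif4a2 and Rps6kb2. Gnb2l1, the small subunit's signalling scaffold, was at 2230, 1210, 2290, 2120 and 948 CPM in the controls and 821 to 1070 CPM in MM, with a log2 fold change of -0.89 (SE 0.294), which resembles the members. Fau, which encodes the small subunit's eS30, had -0.44 (SE 0.270, unadjusted p = 0.132), with No MM 3 and No MM 4 at 488 and 522 CPM below No MM 1 at 1080.

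Of 10 elongation factors 3 were lower, Eef1b2, Eef1g and Eef1d, which form the exchange factor for Eef1a, and 0 were without No MM 3 and No MM 4. The shares of all tested genes lower in these 2 fits were 10.3% and 3.37%, and 3.81% and 2.51% were higher. Eef1b2 and Eef1g had log2 fold changes of -0.83 (SE 0.278) and -0.74 (SE 0.252). Eef1a1 and Eef2, which bring tRNAs and move the ribosome, had -0.53 (SE 0.324) and -0.55 (SE 0.276) with unadjusted p of 0.129 and 0.0731. Of 34 initiation factors 13 were lower, and 2 lower and 1 higher without No MM 3 and No MM 4, with -0.75 (SE 0.236) for Eif3c and -0.58 (SE 0.176) for Eif2b5. Of 9 other TOP mRNAs 1 was lower, Gnb2l1, and 1, Vim, without No MM 3 and No MM 4, while Tpt1 and Npm1 had -0.45 (SE 0.229) and -0.21 (SE 0.225). A call of 1 gene is no result about that list.

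The factories of the ribosome were described in the same way. Beside these counts stand 10.3% of all tested genes lower and 3.81% higher over 10 libraries, and 3.37% and 2.51% without No MM 3 and No MM 4. Of 39 genes of small nucleolar RNPs and rRNA processing 12 were lower over 10 libraries and 0 without No MM 3 and No MM 4, with -0.67 (SE 0.220) for Imp3 and -0.69 (SE 0.232) for Bop1. Of 15 genes of RNA polymerase I 4 were lower, Cd3eap, Polr1c with -0.51 (SE 0.179), Polr1d and Rrn3, and Polr1d alone without No MM 3 and No MM 4. Of these Cd3eap, which lies on chromosome 7, was at 41.5 and 49.2 CPM in No MM 3 and No MM 4 and 9.10 to 16.3 CPM in the other 8. Of 18 genes that control the group through mTORC1, Larp1 or Myc, 2 were lower and 1, Mycn, was higher, and without No MM 3 and No MM 4 Eif4ebp1 was lower and Rps6kb2 higher. The lower ones were Mycl, at 46.0 and 14.6 CPM in No MM 3 and No MM 4 and 2.08 to 4.32 CPM elsewhere, and Eif4ebp1 with -0.39 (SE 0.174). The counts of this list lie near the shares of all tested genes and are no result about it. Myc, a driver of ribosomal protein transcription, was at 53.3, 40.5, 19.4, 26.0 and 47.6 CPM in the controls and 35.4 to 53.3 CPM in MM. It was lowest in No MM 3 and No MM 4, where the ribosomal protein mRNAs were high, but was at 53.3 CPM in No MM 1, where they were high too. The log2 fold change of Myc was 0.27 (SE 0.271, unadjusted p = 0.348) over 10 libraries and -0.09 (SE 0.183) without No MM 3 and No MM 4. Larp1 had -0.26 (SE 0.238) and 0.16 (SE 0.145) in the same 2 fits.

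The 76 genes of the mitochondrial ribosome, which serves the mRNAs of the mitochondrial genome, were set beside the cytosolic ones. Of these, 48 were lower and 0 higher at an unadjusted p under 0.05 over 10 libraries (10.3% and 3.81% of all tested genes), with a median log2 fold change of -0.44, and 24 were lower without No MM 3 and No MM 4 (3.37%), with a median of -0.39. With No MM 1 also left out 3 were lower (0.519%), Mrpl52, Mrpl54 and Mrps16, and the median was -0.13. The direction was thus shared by both ribosomes, and the difference between them was not tested.

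Of the 86 genes, 30 have a small nucleolar RNA inside in GENCODE M21. These hosts had a median log2 fold change of -0.66, and the other 56 had -0.71. Without No MM 3 and No MM 4 the medians were -0.57 and -0.58.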

How the data were processed

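Osteocyte RNA of 5 No MM and 5 MM mice had been sequenced by the authors as 76-bp paired-end reads from stranded total RNA libraries. FastQC 0.11.5 and STAR are named in the submitters' processing notes, and the STAR version, the counting program, its strand setting, the annotation and the genome build are not given in the sources used here. The authors deposited read counts per gene as whole numbers without normalization, and these were analyzed. They also deposited a normalized signal (counts divided by 1 size factor per library) and FPKM values, which were not used. Their log2 fold changes and p-values are the authors' own comparison and were not used. Groups were taken from the labels.

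Counts were tested in R 4.3.3 with edgeR 4.0.16 (filterByExpr, TMM, glmQLFit, glmQLFTest, MM against No MM, no covariates), with Benjamini-Hochberg adjustment over all tested genes and a threshold of 0.05. Alternatives were DESeq2 1.42.0, RLE and upper quartile factors, library totals, no filter, at least 10 counts in every library, immunoglobulin genes left out, each mouse left out, and No MM 3 and No MM 4 left out. The scripts were checked on simulated counts. CPM are counts relative to TMM-scaled library totals, and 0.5 was added before log2. Intervals cover counting error only, and a level of 3 counts, the smallest that the depth resolves, is 0.0709 to 0.114 CPM. Coordinates are the table's, and 50 of the 86 genes have the same start and end in GENCODE M21 (GRCm38). Start sites are RefSeq's. Members and gene lists were chosen with earlier results of these data known. Named genes were the 5 highest and 5 lowest per length, the 5 with the largest log2 fold change in each direction in each fit among those with an unadjusted p under 0.05 or groups that do not overlap, paralogs and partners, the P stalk, the cancer-linked list, and of each translation list the 2 with the smallest p and Myc, Larp1, Eef1a1, Eef2, Npm1 and Fau, apart from genes not reported here. Other genes were named after their values were seen.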

Additional observations from a re-analysis of the deposited data

Results flagged for a closer look

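Each of 94 sets of 5 values (the share, the subunit ratio, the median deviation, the named genes and the paralog percentages, by group) was searched for a library that stood apart, and chance alone flags about 1 in 20 such sets. For 6, the gap to the nearest library took over 0.71 of the range of the group. In No MM, the flag was No MM 1 for Rps10, at 1234 CPM against 497 to 682 (gap 0.749 of the range), and for Rps15, at 1997 CPM against 772 to 1063 (0.762). In MM, MM 6 was flagged for Rpl3l, at 38.1 CPM against 4.58 to 12.2 (0.774), for Rpl3l as a percentage of Rpl3, at 6.69% against 0.733% to 1.90% (0.804), and for Rpl22l1 as a percentage of Rpl22, at 179% against 137% to 143% (0.857). MM 9 was flagged for Rps27rt as a percentage of Rps27, at 0.889% against 0.355% to 0.499% (0.730), a gene with few and possibly shared reads.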

How the results depend on the processing

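No paired analysis was possible because the labels give the groups no shared replicate numbers. Over 10 libraries, the 72 genes lower at an unadjusted p under 0.05 were 23 with library totals in place of TMM, 39 without No MM 3 and No MM 4 and 9 when a 2-fold change was also required, and the 0 calls at an adjusted p were 12 with DESeq2. Library totals moved the median of all genes from -0.03 to 0.30 and the calls over all genes from 1664 lower and 617 higher to 449 lower and 2128 higher, while the median of the members moved from -0.71 to -0.33, 0.62 below that of all genes. Leaving out 1 mouse gave 52 (without MM 6, MM 9 or MM 10) to 76 (without No MM 5) lower and medians from -0.83 to -0.60, and all other settings kept the count within 1.5 times. Of all tested genes 10.6%, 6.82% and 6.61% were lower without MM 6, MM 9 and MM 10, and 14.5% without No MM 5. Without No MM 3 and No MM 4, 39 became 9 with library totals (0.663% of all tested genes) and 2 with a 2-fold change (0.488%). Leaving out 1 more mouse there gave 1 (without No MM 1) to 70 (without No MM 5) lower, 22 without No MM 2, and 15, 17, 23, 8 and 6 without MM 6 to MM 10, with 0 to 1 higher and medians from -0.78 to -0.22. The shares of all tested genes lower in these fits are given with the counts in the Results. Of the translation genes, the 35 lower were 6 without No MM 3 and No MM 4 (3.37% of all tested genes), 3 with library totals (2.77%) and 20 to 51 with 1 mouse left out (5.73% to 14.5%). The 1 higher was 2 without No MM 3 and No MM 4 (417 of 16600 tested genes), 2 with DESeq2 (865 of 16186) and 7 with library totals (2128 of 16186). It was 0 with no filter (783 of 22548), 0 without immunoglobulin genes (578 of 15984) and 0 to 2 with 1 mouse left out (291 of 16367 to 1276 of 16353). With library totals the calls lie near or below the shares of all tested genes and are no result about these lists. The mean share in No MM was 8.13% with immunoglobulin genes left out of the total. The cause was not tested. Of 36 named genes, 4 changed sign in 21 of 647 values. Rpl22l1 went to -0.22 without No MM 3 and No MM 4 and from -0.12 to 0.08 with 1 mouse left out. Rpl24 went to 0.32 with library totals, 0.91 without No MM 3 and No MM 4 and from -0.36 to 0.35 with 1 mouse left out. Rpl39l went to -0.02 without immunoglobulin genes, -0.60 without No MM 3 and No MM 4 and from -0.40 to 0.71 with 1 mouse left out. Rps27rt went to 0.29 with library totals, 0.12 without No MM 3 and No MM 4 and from -0.39 to 0.04 with 1 mouse left out. Depth limits Rpl24, Rps27rt, Rpl39l, Rps4l and Rpl3l, the members under 200 counts in at least 1 library.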
